A study of Homo sapiens with 4 samples.

Results

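A set of 8 genes of peptide signalling was followed in drug-resistant A375 melanoma cells, out of the 34241 gene identifiers that the count tables list. They were the peptide precursors UTS2, NTS, SCG2 and VGF, the processing genes SCG5, PCSK1 and PCSK6, and SUCNR1, a receptor. They were chosen with values from these data in view, namely the levels of UTS2, NTS and SUCNR1 in cells resistant to vemurafenib plus cobimetinib, so the levels of these 3 genes are given as a description and no test supports them. SCG2, SCG5, VGF, PCSK1 and PCSK6 stand beside them as genes of the same secretory route.

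A375 is an established BRAF-mutant human melanoma line. Untreated, sensitive cells (S) were compared with cultures made resistant to the BRAF inhibitor vemurafenib (RV), to vemurafenib with the MEK1/2 inhibitor cobimetinib (RVC), or to vemurafenib with trametinib (RVT), another MEK1/2 inhibitor. The resistant cultures were kept for 10 to 14 days on 0.5 times the IC50 of their drugs and were taken off them 24 h before the cells were captured, so none was on drug when measured. About 10000 cells of each culture were loaded for droplet sequencing with version 2 of the Chromium kit, which counts each captured transcript once, at its 3′ end, as a UMI (unique molecular identifier). Each condition is 1 library of 1 culture, so condition and library cannot be told apart and no comparison between conditions has a replicate check or a p-value. Levels are UMIs per 1000000 UMIs of the library (CPM), and every interval is a 95% interval that covers counting error only.

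Neuropeptides and peptide hormones are made as longer precursors that enter the secretory route, are cut at basic residues by proprotein convertases, trimmed by carboxypeptidases, often amidated at their end, and released from dense-core granules. Granins such as secretogranins and VGF help to form these granules and are themselves cut into peptides. UTS2 encodes the precursor of urotensin II, a cyclic vasoactive peptide that acts on the receptor UTS2R. NTS encodes neurotensin, a gut and brain peptide that acts on NTSR1 and NTSR2 and also binds sortilin (SORT1). SUCNR1 is not a peptide gene: it encodes the G protein-coupled receptor for extracellular succinate, a metabolite of the citric acid cycle. PCSK1 encodes prohormone convertase 1/3, PCSK6 encodes the convertase PACE4, and SCG5 encodes 7B2, a granule protein that assists and inhibits the related convertase PCSK2.

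All 8 members were listed in all 4 tables. In GRCh38 with the GENCODE release 29 annotation, UTS2 lies at chr1:7843083-7853512 on the minus strand, NTS at chr12:85874295-85882992 on the plus strand and SUCNR1 at chr3:151873643-151884619 on the plus strand. SCG2 is on chromosome 2, SCG5 and PCSK6 on chromosome 15, VGF on chromosome 7 and PCSK1 on chromosome 5, so no pair of the 3 genes that were high in RVC is linked on a chromosome. UTS2 overlaps PER3 on the opposite strand and SUCNR1 overlaps AADACL2-AS1 on the opposite strand. PER3 held 29, 19, 19 and 157 UMIs for S, RV, RVC and RVT (0.496, 0.363, 0.578 and 6.18 CPM), fewer than UTS2 in RVC but more than UTS2 in each of the other libraries. AADACL2-AS1 held no UMI in any library.

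RefSeq promoter windows (GRCh38.p14) were held for 7 of the 8 members, all but SCG2, as 9 windows of 250 bases that end at the base before an annotated start. Those of UTS2 (its outer start), NTS and SUCNR1 are shown because these genes were all highest in RVC, and those of VGF and PCSK1 (its outer start) because both hold the same full cAMP response element. The sequences are written 5′ to 3′ on the gene's strand, and capitals mark a match, on either strand, to one of the motifs searched (the AP-1, cAMP response element, TATA box, E-box and TEAD letters given after the sequences).
UTS2 chr1:7853492-7853741 (minus): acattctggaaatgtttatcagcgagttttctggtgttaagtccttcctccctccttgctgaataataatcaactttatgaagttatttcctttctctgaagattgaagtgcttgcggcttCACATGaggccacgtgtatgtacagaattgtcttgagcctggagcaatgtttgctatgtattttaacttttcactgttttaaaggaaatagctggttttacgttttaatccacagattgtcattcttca
NTS chr12:85874045-85874294 (plus): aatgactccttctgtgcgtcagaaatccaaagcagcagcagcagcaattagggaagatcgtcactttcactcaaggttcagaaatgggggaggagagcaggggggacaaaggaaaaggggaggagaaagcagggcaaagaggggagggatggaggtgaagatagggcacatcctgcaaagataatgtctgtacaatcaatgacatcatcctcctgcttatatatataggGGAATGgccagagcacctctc
SUCNR1 chr3:151873393-151873642 (plus): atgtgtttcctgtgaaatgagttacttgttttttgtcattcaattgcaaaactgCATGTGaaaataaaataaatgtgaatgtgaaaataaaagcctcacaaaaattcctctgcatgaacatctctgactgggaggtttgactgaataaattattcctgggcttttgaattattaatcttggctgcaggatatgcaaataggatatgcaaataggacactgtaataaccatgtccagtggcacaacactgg
VGF chr7:101165570-101165819 (minus): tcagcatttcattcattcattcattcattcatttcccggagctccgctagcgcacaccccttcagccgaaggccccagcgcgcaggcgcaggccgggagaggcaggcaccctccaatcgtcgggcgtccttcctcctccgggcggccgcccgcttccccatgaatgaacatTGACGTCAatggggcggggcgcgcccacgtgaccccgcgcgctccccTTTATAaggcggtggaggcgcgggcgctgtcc
PCSK1 chr5:96433249-96433498 (minus): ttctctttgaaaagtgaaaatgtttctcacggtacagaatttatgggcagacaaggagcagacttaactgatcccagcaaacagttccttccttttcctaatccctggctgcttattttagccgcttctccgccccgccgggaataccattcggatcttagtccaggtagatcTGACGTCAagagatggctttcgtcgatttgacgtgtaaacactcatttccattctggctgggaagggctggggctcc

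The letters searched for the cAMP response element (CRE) were TGACGTCA. They begin 79 bases before the VGF start and 77 bases before the outer PCSK1 start, and 1.65% of 35116 RefSeq promoter windows of the same length hold them. The AP-1 letters searched, TGANTCA, held by 6.57% of windows, were in none of the 9 member windows. The E-box letters searched, CATGTG, held by 9.42% of windows, were in the UTS2 and SUCNR1 windows shown, and were not in that of NTS. The NTS window held the TEAD letters searched, GGAATG, which 11.9% of windows hold. The TATA box letters searched, TATAAA, held by 10.7% of windows, were in the VGF window and in the windows of the inner starts of UTS2 and PCSK1, which are not shown. Only these letters were searched, so a window without a match can still hold another form of the motif. A match is a description of the letters, and counts from 3′ ends do not tell which start was used.

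The libraries held 25406351 to 58470570 UMIs in 4177 to 8443 cells after filtering, with 2869 to 11553 UMIs in the median cell and the lowest depth in RVC and RVT. S and RV were counted against one gene annotation of 33694 identifiers and RVC and RVT against another of 33538, so ratios of RVC or RVT to S cross this change, while RV over S and RVC over RVT do not. Of 10 melanocytic markers, SOX10 and S100B had 86.7 and 33.2 CPM in S and no UMI in RVC, and the list summed to 135, 70.9, 14.4 and 70.1 CPM for S, RV, RVC and RVT. Of 9 fibroblast markers, 8 were at least 2-fold higher in RVC than in S, beside 26.3% of all genes, led by COL3A1 at 122 CPM. In RVT, 7 of 7 measured were at least 2-fold higher than in S, beside 35.9% of all genes, and the list summed to 2.99, 2.39, 194 and 45.2 CPM in the same order. The 8 neuroendocrine markers summed to no more than 4.91 CPM in any library, with CHGA, INSM1, NEUROD1 and DDC at 3 UMIs or fewer throughout. Libraries shared 36 to 102 cell barcodes of kept cells by pair. The identity of the RVC library was not checked against other data, which bears on every RVC value, and the part of these marker shifts in the results was not tested.

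UTS2 was among the most abundant transcripts of RVC and close to absent elsewhere. RVC held 256532 of its UMIs (7802 CPM, 7771 to 7832), while S and RV held 11 each (0.188 CPM, 0.0939 to 0.337, and 0.210 CPM, 0.105 to 0.376) and RVT held 45 (1.77 CPM, 1.29 to 2.37). In RVC it ranked 17th of all genes by UMIs and made up 0.780% of them. Against S its level in RVC was 41469 times higher (23176 to 83073), a ratio whose width comes from the 11 UMIs in S, and against RVT, counted with the same annotation, it was 4405 times higher (3292 to 6039). Both are the highest ratios among the 17674 and 17132 genes compared (those above 3 UMIs on one side at least), which is the value that chose the gene. In RVT it was 9.41 times the S level (4.79 to 20.2), at a low level in both and in a library where the overlapping PER3 was also higher than in S.

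NTS followed UTS2 at a lower level. RVC held 22395 of its UMIs (681 CPM, 672 to 690), S held 34 (0.581 CPM, 0.403 to 0.813), RV held 3 (0.0573 CPM, 0.0118 to 0.168) and RVT held 12 (0.472 CPM, 0.244 to 0.825). The level in RVC was 1171 times that in S (838 to 1692) and 1442 times that in RVT (825 to 2791). Relative to genes of like GC content, a reference chosen after the values were seen, the log2 ratio of RVC to S was 9.55 in place of 10.19. RV was below S, at 0.0986 of its level (0.0194 to 0.313), and the intervals of S and RVT overlapped.

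SUCNR1 had no UMI in S, RV and RVT and 8315 in RVC (253 CPM, 247 to 258). A count of 0 allows up to 3 UMIs per library, so its level in RVC was at least 4929-fold higher than in S, at least 4411-fold higher than in RV and at least 2142-fold higher than in RVT. In RVC it ranked 409th by UMIs. The log2 bound over S was 12.27, or 11.67 relative to genes of like GC content, and that over RVT was 11.06, or 10.37 with at least 1000 genes per cell.

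**Figure D1:**
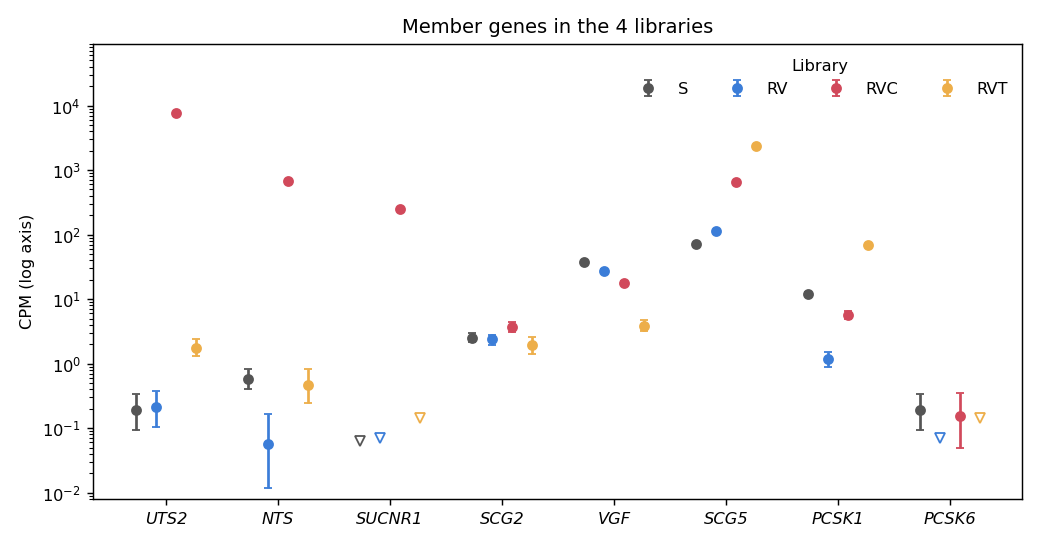
CPM (log axis) of the 8 member genes in the 4 libraries, 1 point per library with its 95% Poisson interval; open triangles mark the upper limit where a library had no UMI. UTS2, NTS and SUCNR1 stand at 7802, 681 and 253 CPM in RVC and below 2 CPM in the other libraries, whereas SCG5 and PCSK1 are highest in RVT and VGF is highest in S.

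The counts of genes with this distribution over the libraries include UTS2, NTS and SUCNR1 themselves. Among the 2853 genes with at least 50 CPM in their highest library, 13 (0.456%) had at least 90% of their summed CPM in RVC and 5 (0.175%) had at least 99%, namely these 3, MMP3 and MMP1. Likeness was measured over the 4 libraries as the summed absolute difference of each library's share of the gene's CPM. By it the genes closest to UTS2 were SUCNR1, NTS, MMP3 (stromelysin 1), MMP1 (interstitial collagenase) and ALOX5AP (5-lipoxygenase activating protein), at distances of 0.000556, 0.00270, 0.00577, 0.0103 and 0.0577. NTS and SUCNR1 had the same 5 neighbours in their lists, each other and UTS2 included. MMP1 went from 3.22 CPM in S, 1.30 in RV and 1.81 in RVT to 1163 in RVC, and MMP3 from 0.0342, 0.0573 and 0.827 to 289. With 4 libraries, every gene that is high in RVC alone has this profile.

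Across the members, 4 of 8 (UTS2, NTS, SUCNR1 and SCG5) were at least 2-fold higher in RVC than in S, where 26.3% of all 17674 genes were, and 2 of 8 (VGF and PCSK1) were at least 2-fold lower, where 23.7% were. Since the choice of members used this contrast, nothing is read from these counts. In RVT, 3 of 7 members with enough UMIs were at least 2-fold higher than in S (UTS2, SCG5 and PCSK1) beside 35.9% of all genes, and 1 of 7 was lower (VGF) beside 21.8%. In RV, 0 of 7 were higher beside 8.88%, and 3 of 7 were lower (NTS, PCSK1 and PCSK6) beside 7.06%. Library totals set these shares. With TMM scaling the share of higher genes among all called in RVC over S went from 52.5% to 43.7%. In RVT over S it went from 62.1% to 45.1%, and in RVC over RVT from 36.3% to 51.3%. The median member ratio was 1.88 on the log2 scale in RVC over S beside 0.19 over all genes, -0.30 in RVT over S beside 0.44, and -0.46 in RV over S beside 0.03.

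Of the other peptide precursors, VGF was lower in every resistant culture than in S, and SCG2 was low throughout. S held 2205 VGF UMIs (37.7 CPM, 36.2 to 39.3), RV 1434 (27.4 CPM, 26.0 to 28.9), RVC 588 (17.9 CPM, 16.5 to 19.4) and RVT 99 (3.897 CPM, 3.17 to 4.74). No 2 of these intervals overlap. The level was 2.11-fold lower in RVC than in S (1.92 to 2.31) and 9.68-fold lower in RVT (7.91 to 11.96). VGF is rich in GC, at 66.2% over the last 500 bases of its longest transcript, and genes of like GC content had a median log2 ratio of -2.41 in RVC over S and -2.38 in RVT over S. Relative to those genes VGF stood 1.33 higher on the log2 scale in RVC, so the direction of this difference depended on the reference, and its log2 ratio to S in RVT was -0.89 on the same reference, which was chosen after the values were seen. GC content and ratio were related over all genes with at least 10 CPM, with Spearman correlations across genes of -0.35 in RVC over S and -0.41 in RVT over S, and 0.009 in RV over S.

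SCG2, the precursor of secretoneurin, held 148, 124, 122 and 49 UMIs in S, RV, RVC and RVT, or 2.53, 2.37, 3.71 and 1.93 CPM. RVC was 1.47 times S (1.14 to 1.88), and this excess vanished relative to genes of like GC content (-0.05 on the log2 scale). No cell of any library held more than 2 of its UMIs, so it was detected at a level that allows no account of its distribution.

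SCG5 was found in more cells than any other member in S, RV and RVT, though not in RVC, where UTS2 was, and it was higher in each resistant culture than in S. S held 4134 of its UMIs (70.7 CPM, 68.6 to 72.9), RV 6037 (115 CPM, 112 to 118), RVC 21534 (655 CPM, 646 to 664) and RVT 59377 (2337 CPM, 2318 to 2356). Its level was 1.63 times that of S in RV (1.57 to 1.70), 9.26 times in RVC (8.96 to 9.58) and 33.1 times in RVT (32.03 to 34.1). UMIs of it were found in 27.6% of S cells, 53.2% of RV cells, 74.6% of RVC cells and 95.9% of RVT cells. After thinning every cell to 1500 UMIs, which left out 403 RVC and 848 RVT cells with fewer, the shares were 8.34%, 13.9%, 52.9% and 90.01%, in the same order. The median RVT cell held 6 UMIs and the highest held 40. In S the spread between cells was also wider than counting alone gives, with 72.4% of cells without a UMI where a Poisson spread at each cell's depth gives 53.4%.

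PCSK1 was highest in RVT and lowest in RV. RVT held 1728 of its UMIs (68.0 CPM, 64.8 to 71.3), S 707 (12.1 CPM, 11.2 to 13.02), RVC 188 (5.72 CPM, 4.93 to 6.596) and RV 61 (1.17 CPM, 0.892 to 1.497). The level in RVT was 5.62 times that in S (5.15 to 6.15), 58.3 times that in RV (45.2 to 76.6) and 11.9 times that in RVC (10.2 to 13.9). Relative to genes of like GC content the log2 ratio of RVT to S was 1.74 in place of 2.49. RV was 10.4-fold below S (7.98 to 13.7) and RVC 2.11-fold (1.80 to 2.497). VGF and PCSK1, which share the CRE letters in their promoters, were both below S in RV and RVC. In RVT VGF was below S and PCSK1 above it. The part of the CRE in these levels was not tested. In RVT the 1354 cells with a PCSK1 UMI had 2060 CPM of SCG5 (2018 to 2102) and the 7089 cells without one had 2396 (2375 to 2417), with a median of 6 SCG5 UMIs in both.

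PCSK6 was near the limit of detection, with 11 UMIs in S, 5 in RVC and none in RV or RVT. Its level was 0.188 CPM in S (0.0939 to 0.337) and 0.152 CPM in RVC (0.0494 to 0.355), and these intervals overlap. Counts of 0, taken to allow up to 3 cells, allow a share of up to 0.0718% of RV cells and 0.0355% of RVT cells with a UMI. PCSK6 shares its strand with overlapping noncoding genes, of which the one listed, AC090164.3, held no UMI.

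The receptors of the member peptides were low in every library. UTS2R and NTSR2 had 3 UMIs or fewer in each. NTSR1 held 86 UMIs in S, 55 in RV, 3 in RVC and none in RVT (1.47, 1.05, 0.0912 and 0 CPM), so it was low both in RVC, where NTS was highest, and in RVT, where NTS was low. SORT1 was the most abundant of the 6, at 4.24, 6.17, 5.93 and 15.8 CPM in S, RV, RVC and RVT. C3AR1, which binds a VGF peptide, held 15, 0, 61 and 2 UMIs. Of the 4 receptors over the floor, 1 was at least 2-fold higher in RVC than in S and 1 at least 2-fold lower, near the shares of all genes (26.3% and 23.7%), with a median log2 ratio of 0.66 beside 0.19 over all genes. In RVT over S 1 of 4 was higher (SORT1) and 2 were lower (C3AR1 and NTSR1), beside 35.9% and 21.8% of all genes, with a median log2 ratio of -0.75 beside 0.44.

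Of the enzymes that cut precursors, PCSK7 was the most abundant, at 27.7, 21.1, 62.5 and 79.3 CPM in S, RV, RVC and RVT, and FURIN, which cuts in the trans-Golgi network, was at 13.5, 8.85, 6.39 and 6.61 CPM. PCSK2, the partner of SCG5, had 3 UMIs or fewer in every library. In RVC over S, 1 of 5 measured convertases that are no members was higher and 3 were lower (FURIN, and PCSK4 and PCSK5 with 3 and 2 UMIs in RVC), beside 26.3% and 23.7% of all genes, at a median log2 ratio of -1.08, and in RVT over S 2 were higher (PCSK7 and PCSK5) and 1 lower, beside 35.9% and 21.8%. PCSK1N, which encodes the PCSK1 inhibitor proSAAS, held 56 UMIs in S, 1 in RVT and none in RV or RVC.

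PAM, the amidating enzyme, was at 9.82, 10.2, 33.1 and 120 CPM in S, RV, RVC and RVT, and CPE, the granule carboxypeptidase, at 0.599, 0.726, 2.74 and 13.7 CPM. Among 19 measured enzymes that trim, modify or degrade peptides, 5 were at least 2-fold higher in RVC than in S, the same share as over all genes (26.3%), and 3 were lower (23.7% of all genes). In RVT 10 of the 19 were higher and 3 lower, beside 35.9% and 21.8% of all genes. Their median log2 ratio was 0.75 in RVC and 1.64 in RVT, beside 0.19 and 0.44 over all genes. ECE2 is 1 of the lower ones in both, with 645 UMIs in S and 0 in RVC and RVT, a gene in which the change of annotation cannot be told apart from the change of condition.

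Among granins and other genes of dense-core granules, 8 of 15 measured were at least 2-fold higher in RVC than in S and 3 lower, beside 26.3% and 23.7% of all genes. In RVT 10 of 17 were higher and 3 lower, beside 35.9% and 21.8%. The median log2 ratios were 1.07 and 1.12, beside 0.19 and 0.44 over all genes. SYT11 was at 9.05, 7.24, 34.5 and 50.3 CPM for S, RV, RVC and RVT, and RAB27B, a small GTPase of granule release, at 3.75, 11.1, 33.9 and 25.9. CHGA and SCG3 had 3 UMIs or fewer throughout, and CHGB went from 1.81 CPM in S and 2.08 in RV to 0.0912 in RVC and 1.77 in RVT. RAB3A, a granule GTPase of neuroendocrine cells, went from 7.29 CPM in S to 0.456 in RVC and 0.472 in RVT.

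**Figure D2:**
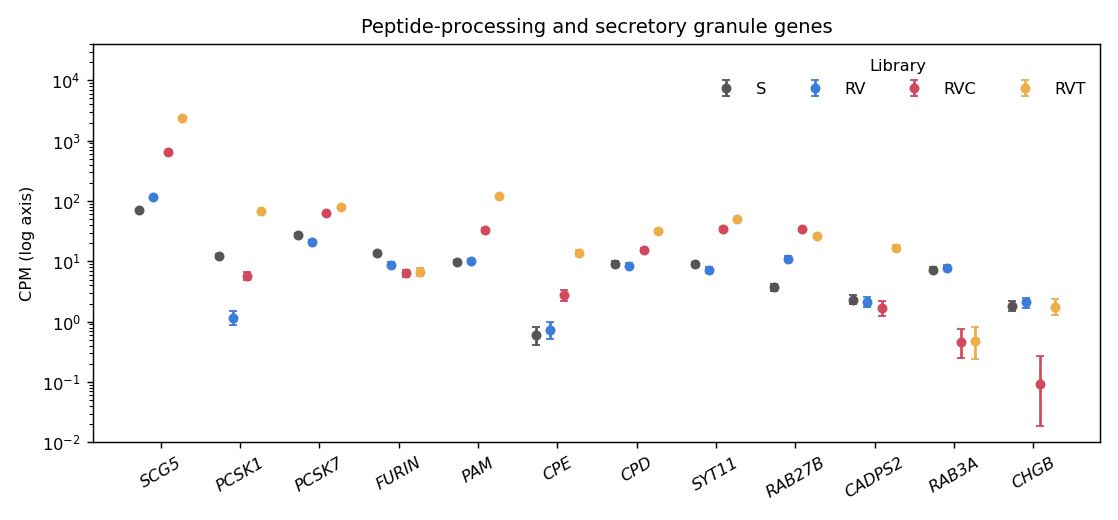
CPM (log axis) of SCG5, PCSK1 and 10 further processing and granule genes in the 4 libraries, with 95% Poisson intervals. SCG5, PCSK7, PAM, CPE, CPD and SYT11 are higher in RVC and RVT than in S and RV, with RVT the highest, whereas FURIN and RAB3A are lower in both and CHGB is lowest in RVC at 0.0912 CPM.

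No other peptide precursor came near the level of UTS2. Of 59 others listed, the most abundant was NMB (neuromedin B), at 48.7, 44.2, 13.9 and 21.5 CPM for S, RV, RVC and RVT. In RVC over S, 4 of the 23 with more than 3 UMIs were at least 2-fold higher and 12 were lower, beside 26.3% and 23.7% of all genes, with a median log2 ratio of -1.04 beside 0.19. GIP was among the higher ones, with 18 UMIs in S and 263 in RVC (7.998 CPM), and 112 in RVT (4.41 CPM), and VIP held 4 and 75 UMIs, with 0 in RVT. KISS1, the kisspeptin precursor, held 428 UMIs in S, 185 in RV and none in RVC or RVT. For its absence there, as for that of ECE2, the change of annotation cannot be told apart from the change of condition. UCN2 went from 9.94 CPM in S to 1.34 in RVC and 0.0394 in RVT. UTS2B, the related precursor of urotensin II-related peptide, held no more than 8 UMIs in any library.

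Around SUCNR1, most genes of enzymes and transporters that make, use or carry succinate were within 2-fold of S. Of 14 measured, none was at least 2-fold higher in RVC than in S and 3 were lower (SDHB, SUCLG2 and SLC25A10), beside 26.3% and 23.7% of all genes, with a median log2 ratio of 0.05 beside 0.19 over all genes. SDHC, a membrane subunit of succinate dehydrogenase, was the most abundant, at 157, 159, 242 and 266 CPM in S, RV, RVC and RVT, and SDHB, its iron-sulphur subunit, went from 146 CPM in S to 46.6 in RVC and 46.5 in RVT. Of 13 receptors of related sequence, none passed 3.03 CPM in any library. SUCNR1 itself was at 253 CPM in RVC.

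No gene beside the 3 loci reached the RVC level of the member it lay beside, though several were at least 2-fold higher there than in S. The 3 nearest protein-coding genes on either side were taken for each, out to 2150854 bases. The highest of the 6 in RVC beside UTS2 was PARK7, at 798 CPM in RVC and 499 in S, beside NTS ALX1 at 15.4 CPM, and beside SUCNR1 MBNL1 at 81.7 CPM. Of the neighbours with more than 3 UMIs, 2 of 6 beside UTS2, 4 of 5 beside NTS and 3 of 4 beside SUCNR1 were at least 2-fold higher in RVC than in S, where 26.3% of all genes were. TNFRSF9, 62382 bases from UTS2, went from 1.40 CPM in S to 22.3 in RVC, with 0.191 in RV and 0.197 in RVT. RASSF9, 37725 bases from NTS, held 244 UMIs in RVC, 19 in RVT, 2 in S and none in RV. Both were chosen after their values were seen.

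Over the 7620 kept RVC cells UTS2 was nearly ubiquitous but very uneven. A UMI of it was found in 7218 cells (94.7%, 94.2% to 95.2%), and in 84.7% after thinning. The cells held a median of 15 UMIs, the lower quartile was 3 and the upper quartile 44, and the highest cell held 557. The 762 cells with the most held 44.6% of all UTS2 UMIs. Cells without any made up 5.28%, where a Poisson spread at each cell's depth gives 0.000602%. The variance was 74.9 times the Poisson value, the highest of the 1692 genes with at least 50 CPM in RVC. This measure was not adjusted for level, so ranks by it, here and below, are not like for like between genes of different levels.

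NTS was found in 4421 RVC cells (58.0%, 56.9% to 59.1%) and in 39.1% after thinning, with a median of 1 UMI and a highest value of 276. Its 762 highest cells held 60.9% of its UMIs, and its variance of 19.03 times Poisson ranked 7th. SUCNR1 was found in 3083 cells (40.5%, 39.4% to 41.6%) and in 24.8% after thinning, with at most 25 UMIs in a cell. Its variance was 3.91 times Poisson, which ranked 36th. SCG5, with a median of 2 UMIs and at most 31, had a variance of 2.96 times Poisson, which ranked 57th.

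**Figure D3:**
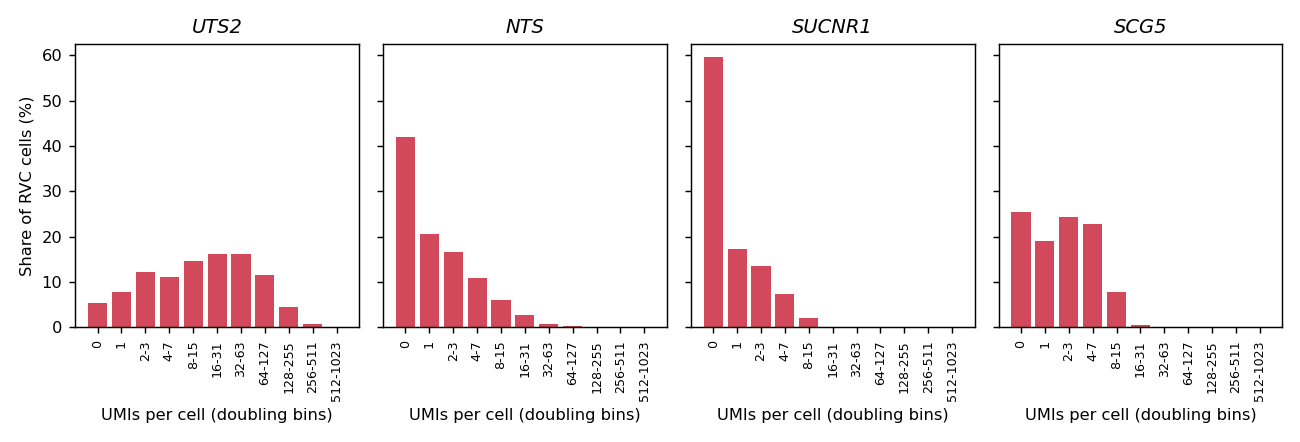
Share of the 7620 RVC cells (%) by UMIs per cell, in bins that double in width, for UTS2, NTS, SUCNR1 and SCG5. UTS2 spreads from 0 to 557 UMIs around a median of 15, NTS and SUCNR1 have their tallest bar at 0 (42.0% and 59.5% of cells), and SCG5 ends at 31 UMIs.

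In the other libraries the few UTS2 and NTS UMIs lay in few cells. UTS2 was found in 11 S cells and 11 RV cells with 1 UMI each, and in 39 RVT cells with up to 4. NTS was found in 20 S cells, of which 6 held at least 2 UMIs and 1 held 6, in 3 RV cells and in 12 RVT cells. None of these cells had a barcode that also occurred in the RVC table, where 71 S, 51 RV and 122 RVT barcodes of kept cells did.

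UTS2, NTS and SUCNR1 were found in the same RVC cells more often than independent detection gives. In the 7217 thinned cells NTS was found in 43.9% of cells with UTS2 and in 12.6% of those without. SUCNR1 was found in 28.6% of cells with UTS2 and in 3.79% of those without, and in 36.4% of cells with NTS against 17.3% of those without. NTS and SUCNR1 were together in 1026 cells, 1.47 times the 699 cells that independence gives. Of 2385 genes found in at least 5% of these cells, 2.94% reached 1.2 times with NTS and 5.58% with SUCNR1, and SUCNR1 was number 2 of them for NTS and NTS number 7 for SUCNR1. UTS2 cannot reach such ratios, because most cells hold it: its ratios were 1.12 with NTS and 1.15 with SUCNR1.

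All 3 transcripts were found in 1016 thinned cells (14.1%), where independence gives 592, and none in 936 (12.97%), where it gives 507. UTS2 was the only one in 2698 cells, NTS in 129 and SUCNR1 in 32, and 10 cells held NTS and SUCNR1 without UTS2. With all UMIs of the 7620 cells, 402 cells held no UTS2, of which 92 held NTS alone, 27 held SUCNR1 alone, 6 held both and 277 held none of the 3.

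**Figure D4:**
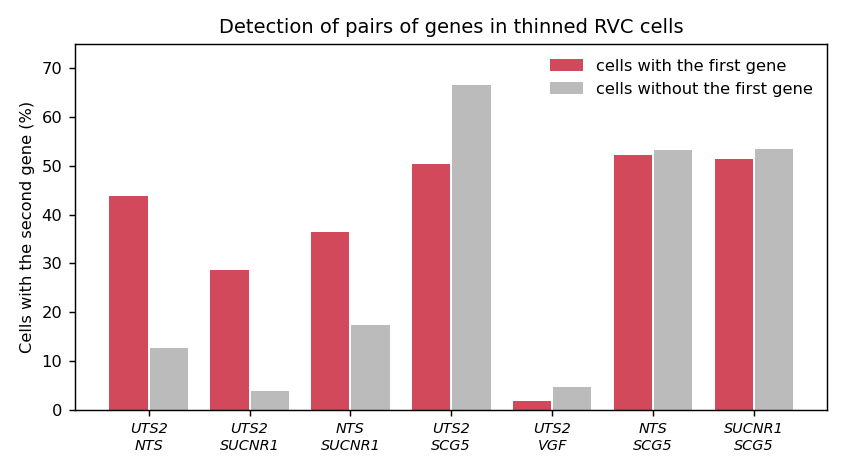
Share of thinned RVC cells (%) in which the second named gene was found, among cells with (red) and without (grey) the first. NTS and SUCNR1 were found in 43.9% and 28.6% of cells with UTS2 and in 12.6% and 3.79% of those without, whereas SCG5 was found less often in cells with UTS2 (50.4%) than without (66.7%).

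Levels were also related. Correlations over the 7620 cells, on the natural log of 1 plus UMIs per 10000, were 0.54 for UTS2 with NTS, 0.38 for UTS2 with SUCNR1 and 0.34 for NTS with SUCNR1. Over 5381 genes the middle 90% of correlations with UTS2 lay between -0.11 and 0.08. SCG5 had correlations of -0.12 with UTS2, -0.01 with NTS and 0.003 with SUCNR1, and VGF had -0.17, -0.10 and -0.11. These cells share 1 library, and UTS2 also had a correlation of -0.20 with the cell's UMI total and 0.18 with its mitochondrial share. When the cells were ordered by UTS2 into 4 groups of 1905, NTS was at 71.3, 308, 829 and 1790 CPM from the lowest group to the highest, and SUCNR1 at 28.3, 221, 366 and 461. PCSK1 went from 2.36 to 12.5 CPM (10.0 to 15.5), and SCG5 was highest in the lowest group, at 867 CPM, and then went from 453 to 559 and 729. VGF was at 40.4 CPM in the lowest group and between 6.65 and 11.7 in the others. The median depth was 4544 UMIs in the lowest group and 3189 in the highest, and ribosomal protein genes took 38.7% and 31.0% of the UMIs. Their part in these trends was not tested.

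Genes were then ranked by correlation with mitochondrial and ribosomal protein genes left out, which left 5292 genes, UTS2 included. The 78 ribosomal protein genes had a median correlation of -0.18 with UTS2. In this ranking the genes closest to UTS2 over RVC cells were NTS (0.54), IFITM2 (0.49), TMSB4X (0.49), MMP1 (0.48) and SUCNR1 (0.38). IFITM2 encodes an interferon-induced membrane protein and TMSB4X the actin-binding peptide thymosin beta-4. These 5 genes, with UTS2 in the place of the gene itself, were also the 5 closest to NTS and to SUCNR1. IFITM2 was at 55.5, 70.1, 337 and 258 CPM in S, RV, RVC and RVT, so it was also higher in RVT than in S, unlike NTS and SUCNR1. At the other end were C15orf48 (-0.49), AKR1B1 (-0.48), FABP6 (-0.47), NCAPD2 (-0.46) and FN1 (-0.41). AKR1B1 encodes aldose reductase, FABP6 the ileal bile acid-binding protein, NCAPD2 a condensin subunit and FN1 fibronectin. Each of these 5 was itself higher in RVC than in the other libraries, as with C15orf48 at 13.1, 13.5, 323 and 7.60 CPM.

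RVC cells were then ranked by the summed level of these 5 opposed genes and cut into 10 groups of 762 cells. This grouping was chosen after the values were seen, and in it the pattern is given by the choice for all members described. The ranking genes are also among the lowest correlates of NTS and SUCNR1. C15orf48, FABP6, FN1 and NCAPD2 were the highest correlates of VGF, and FABP6, C15orf48 and NCAPD2 those of SCG5. UTS2 lay between 8167 and 14363 CPM over groups 1 to 7, and was at 3709, 1025 and 587 CPM (562 to 613) in groups 8, 9 and 10. NTS was at 1231 CPM in the lowest group and at 62.2 in the highest (54.1 to 71.1), and SUCNR1 at 422 and 20.9 (16.4 to 26.3). MMP1 went from 2110 to 136 CPM. VGF went the other way, from 9.49 CPM in the lowest group (6.02 to 14.2) to 46.2 in the highest (39.3 to 53.9). SCG5 was at 699 CPM in the lowest group, 505 in group 5 and 1017 in the highest.

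**Figure D5:**
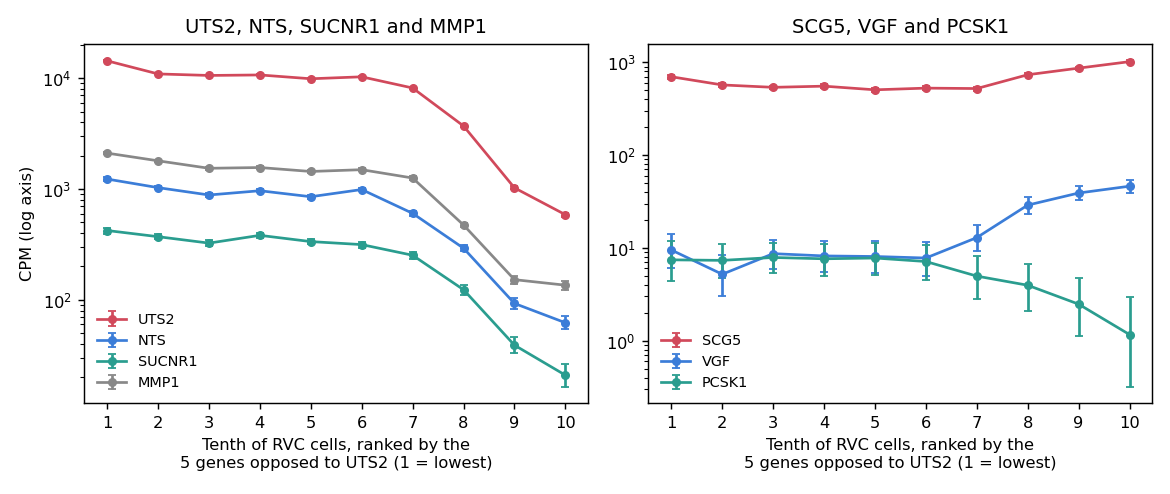
CPM (log axis, 95% Poisson intervals) in 10 groups of 762 RVC cells ranked by the summed level of C15orf48, AKR1B1, FABP6, NCAPD2 and FN1, from lowest (1) to highest (10). UTS2, NTS, SUCNR1 and MMP1 are all lower in groups 8 to 10 than before, with UTS2 at 587 CPM in group 10, where VGF is at 46.2 CPM, SCG5 at 1017 CPM and PCSK1 at 1.16 CPM.

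The proportions of the 3 transcripts changed less than their levels. UTS2 UMIs per NTS UMI numbered 11.5 over all RVC cells (11.3 to 11.6) and 9.44 in the highest group (8.20 to 10.9). UTS2 UMIs per SUCNR1 UMI numbered 30.9 (30.2 to 31.5) and 28.1 (22.2 to 36.0), and NTS UMIs per SUCNR1 UMI 2.69 (2.63 to 2.76) and 2.97 (2.27 to 3.94). In the highest group UTS2 was still found in 79.4% of cells (76.3% to 82.2%), at 7.52% of the level over all RVC cells, NTS in 23.5% and SUCNR1 in 7.74%, at a median depth of 4114 UMIs. RNA free in the suspension also gives UMIs in cells that do not express a gene. No RVC cells are known to lack these genes, so such a share could not be set apart, and the shares of cells above include it.

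In the 6898 cells without a UMI of SERPINB3 or PDGFRA, which were chosen after their values were seen as genes of a minor RVC subset, UTS2 was at 7194 CPM, NTS at 628 and SUCNR1 at 235. The 722 cells with one had 13177, 1146 and 411 CPM, so all 3 were higher there and were also abundant in the cells outside it. In the 4112 thinned cells with at least 3 UMIs of 20 mitotic genes UTS2 was at 6730 CPM (6694 to 6767), and in the 3105 others at 8975 (8925 to 9026). These levels were taken over all UMIs of the cells, not over the thinned ones. NTS was at 614 and 734 CPM and SUCNR1 at 224 and 286 in the same groups.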

How the data were processed

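Droplet single-cell RNA-seq of 4 A375 cultures was deposited by the authors as tables of UMI counts per gene and cell, made with Cell Ranger after bcl2fastq 2.20.0.422 as per the labels. The values are raw counts and were not normalized. The members and gene lists were chosen with earlier results of these data known.

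Cells with at least 500 genes and at most 20% mitochondrial UMIs were kept. Doublets were removed by their scrublet score at a fixed rate of 0.8% per 1000 cells, since the caller's own threshold marked 5, 2, 1 and 1 cells in S, RV, RVC and RVT. The S and RV tables held more barcodes than the cell numbers the study states. UMIs were summed per library and divided by its total. CPM have exact Poisson intervals, shares exact Clopper-Pearson intervals (a limit of 3 counts where a share is 0) and ratios exact conditional binomial intervals, all at 95%, and a count of 0 was replaced by 3 UMIs in a ratio. Intervals cover counting error only. Genes over 3 UMIs in either library were compared, with 2-fold as the limit for counting. Shares and pairs of genes were also taken after each cell was thinned to 1500 UMIs (seed 1). Cells counted as mitotic had at least 3 UMIs of 20 genes. In RVC 4112 of 7217 thinned cells reached this limit, which was not checked against cell cycle phase.

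The genes named include the 8 members and the 5 closest to UTS2, NTS and SUCNR1 by correlation over RVC cells (genes found in at least 5% of cells). The 5 closest by library profile (at least 50 CPM) are also named. Genes of fixed lists are named for the highest CPM, a direct bond to the members or the direction of their change. Mitochondrial and ribosomal protein genes were left out of the ranking by correlation. The 5 most opposed genes, and others marked so in the text, were chosen after the values were seen. So were list genes named for their direction, such as GIP, VIP, FOS, EGR1, CCND1 and DUSP4. Alternatives were other cell filters, thinning depths, scaling, weights and a GC reference. The scripts were tested on simulated data. Python 3.11.15, numpy 2.4.6, pandas 2.3.3, scipy 1.17.1, scanpy 1.11.5, R 4.3.3 and edgeR 4.0.16 (TMM factors only) were used.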

Additional observations from a re-analysis of the deposited data

Results flagged for a closer look

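Signal was present in RVC barcodes that the filter left out of the comparisons of the report. The 903 RVC barcodes with fewer than 500 genes held UTS2 at 6438 CPM (6248 to 6632), NTS at 741 CPM (677 to 808) and SUCNR1 at 232 CPM (197 to 271), above the levels of all 3 genes in the S library. They held 8.69 UTS2 UMIs per NTS UMI and 27.7 per SUCNR1 UMI, beside 11.5 and 30.9 over the kept RVC cells. The 478 RVC barcodes over 20% mitochondrial UMIs held UTS2 at 3264 CPM, NTS at 647 and SUCNR1 at 181, with 5.05 UTS2 UMIs per NTS UMI and 18.0 per SUCNR1 UMI. Of 9266 RVC barcodes 8307 passed both limits, so most of the 478 are also among the 903. Whether these barcodes hold damaged cells or free RNA was not tested.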

How the results depend on the processing

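Of 235 recomputed values of 30 log2 ratios of members, 202 stayed within the main value's counting interval (for ratios to 0 UMIs, within 0.5 of the bound or beyond it), 31 lay outside it and 2 changed a sign that this interval supported. The count of 4 members at least 2-fold higher in RVC than in S was the same under all 10 alternatives. Nothing is read from this, since the choice of members used this contrast and the lowest of the 4 ratios was 9.26-fold. The 2 reversals were VGF and SCG2 in RVC over S relative to genes of like GC content (1.33 and -0.045), a reference chosen after seeing the data. Of 6 sign changes in all, the other 4 were of ratios whose interval included 0: NTS in RVT over S (-0.30) was 0.0097 with all barcodes and 0.054 with doublets kept, SCG2 in RV over S (-0.10) was 0.025 with equal weight per cell, and PCSK6 in RVC over RVT (0.36) was -0.33 with at least 1000 genes per cell. Relative to genes of like GC content NTS was at 9.55 and SUCNR1 at 11.67 in RVC over S, SCG5 at 2.77 in RVC and 4.47 in RVT, VGF at -0.89 in RVT and PCSK1 at 1.74 in RVT. With TMM scaling SCG5 was at 2.998 in RVC and 4.53 in RVT, VGF at -1.29 and -3.79, and PCSK1 at 1.98 in RVT. With at least 1000 genes per cell SCG5 was at 3.14 and 4.91. Without ribosomal and mitochondrial genes in the totals SCG5 was at 3.07 and VGF at -1.22 in RVC. With equal weight per cell SCG5 was at 3.49 in RVC and 5.32 in RVT and VGF at -1.26 in RVC. SUCNR1 has no such value, since S held none of it. The co-detection ratio of NTS and SUCNR1, 1.47, was 1.56 at 1000 UMIs per cell and 1.27 with all UMIs and the expectation taken within depth groups. The causes were not tested. No paired analysis was possible because each condition has 1 library, and depth limits statements on PCSK6 and SCG2.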

Other observations

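Genes that respond to CREB and AP-1 were measured as a list. Of 29 measured, 6 were at least 2-fold higher in RVC than in S and 11 lower, beside 26.3% and 23.7% of all genes. The counts were the same in RVT, beside 35.9% and 21.8%. The median log2 ratios were -0.49 and -0.10, beside 0.19 and 0.44 over all genes. FOS went from 8.88 CPM in S to 50.7 in RVC and 67.6 in RVT, and EGR1 from 22.1 to 98.8 and 114. Of the lower ones, CCND1 went from 215 CPM in S to 59.0 in RVC and 29.3 in RVT, and DUSP4 from 114 to 15.1 and 26.7. FOS, EGR1, CCND1 and DUSP4 were chosen after their values were seen. PHLDA1, the most abundant of the list, went from 312 CPM in S to 152 and 197.

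Of 7 neuroendocrine regulators measured in RVC over S, 1 was higher and none lower, beside 26.3% and 23.7% of all genes, and of 8 in RVT 4 were higher and 2 lower, beside 35.9% and 21.8%. REST, a repressor of neuronal genes, was at 24.5 CPM in S, 36.7 in RVC and 52.5 in RVT. Of the marker lists of other cell types, the endothelial one summed to 1.95 CPM in RVC beside 0.958 in S, and the leukocyte one to 2.89 beside 0.564. In RVC over S, 3 of 4 measured endothelial markers were higher and 1 lower, beside 26.3% and 23.7% of all genes. Of 3 leukocyte markers 2 were higher and 1 lower, with CD3D at 1 UMI in S and 83 in RVC. The fibroblast list was at 194 CPM in RVC. The keratinocyte list, mostly KRT10, summed to 81.9 CPM in RVC beside 245 in S, with 2 of 6 higher and 4 lower.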
